A study of Mus musculus with 6 samples.

Results

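The liver makes most of the circulating proteins of complement and of blood clotting, and the genes described here are 41 of them: 18 complement components, 3 complement inhibitors, 13 clotting factors including the fibrinogen chains and the contact system, plasminogen, and 6 inhibitors of clotting or fibrinolysis. They were taken by gene name from the 30889 genes of the deposited table, and all 41 were found. The C1q genes, which macrophages make, were kept apart. The samples were liver from mice treated by mouth for 14 days with a water extract of Emilia sonchifolia, a herb of the daisy family (extract, 3 libraries), or with phosphate buffered saline (control, 3 libraries). Genotype, strain, sex, age, dose and number of animals are not given in the sources used here. Nor is it said that each library came from its own animal, so the p-values describe variation among 6 libraries that could be technical.

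Both systems are chains of secreted proteases that cut and activate one another. Complement starts from antibody (the classical pathway), from sugars bound by mannose-binding lectins (the lectin pathway) or from C3 itself (the alternative pathway), converges on the cleavage of C3, and ends in a pore of the terminal components C5 to C9. Clotting runs through the serine proteases factors VII, IX, X, XI and XII to thrombin, which turns fibrinogen into fibrin. Antithrombin and related serpins, protein C and protein S hold it back, and plasmin dissolves the clot. Hepatocytes are the main source of nearly all of these proteins, and several of them belong to the acute phase response to inflammation.

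Each library held 51219533 to 61432016 estimated counts, and the 41 genes took 6.72% ± 0.0239 of them in extract libraries and 6.56% ± 0.234 in control libraries (SD, n = 3 each). Over all genes, extract and control libraries lay at opposite ends of the first principal component (41.7% of variance), while the second (24.5%) set control 3 against control 1. Of 10 hepatocyte markers, 3 were called higher and 4 lower, and albumin (Alb) stood at 26017 ± 163 FPKM in extract and 29910 ± 4101 FPKM in control (SD, n = 3 each, edgeR adjusted p = 0.275). Kupffer cell markers, those of the resident liver macrophages, were called lower for 8 of 10 genes, with a summed level of 169 to 183 FPKM in extract and 272 to 278 FPKM in control. Endothelial markers were called lower for 6 of 10 (47.6 to 51.05 FPKM in extract, 61.4 to 68.8 FPKM in control), and all 6 red cell and all 6 neutrophil markers were called lower. Of 10 stellate and fibroblast markers, 3 were called higher and 1 lower. None of 8 pancreas markers was called, and their summed level was 58.5 to 67.4 FPKM in extract against 5.89, 6.596 and 58.7 FPKM in controls 1, 2 and 3. The part of these cell types in the values of the complement and clotting genes was not tested. In bulk tissue, fewer cells of a type and less RNA per cell cannot be told apart.

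More of the complement and clotting transcripts were higher than lower with the extract, and the changes were small. In edgeR's quasi-likelihood test at an adjusted p under 0.05, 17 of the 41 were called higher, 3 lower and 21 were not called, with a median log2 fold change of 0.08. Across the 18071 genes that entered that test, calls were made for 26.9% (14.2% higher and 12.8% lower), and the median was -0.02. The share called among the 41, 48.8%, lay close to the 46.7% called among the 5164 tested genes with at least 5 FPKM in a group (27.3% higher and 19.4% lower, median 0.02), so the number of calls alone does not set these genes apart from other well expressed liver genes. Their changes ran from -0.34 to 0.89 on the log2 scale. The median size of change, without regard to sign, was 0.14 for the 41, against 0.27 for all genes tested and 0.20 for those with at least 5 FPKM. None of the 41 reached 1 in either direction, and 3 of them, C9, C4a and Mbl2, reached 0.5. On counts scaled with TMM factors, extract and control libraries were fully separated for 26 of the 41 (63.4%), 20 higher and 6 lower, against 44.7% of all genes tested. That share was not computed for genes with at least 5 FPKM alone, so it does not set the 41 apart from well expressed genes.

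The direction of the smallest changes depended on how libraries were scaled. TMM factors averaged 0.983 in extract and 1.02 in control, which raises the edgeR fold changes a little above the ratios of the deposited FPKM. With limma on log2(FPKM + 0.5), 15 of the 41 were called higher and 6 lower, and 39.9% of all calls were higher, against 52.6% in the edgeR test. With upper-quartile factors in edgeR, 16 were called higher and 5 lower (43.9% of all calls higher). The 3 lower calls were also easily lost when a library was left out, with 0 made without extract 1 and 1 without extract 2 or without extract 3. Lower calls among all genes fell as well in these fits, from 2309 to 1480, 1461 and 1669.

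**Figure D1:**
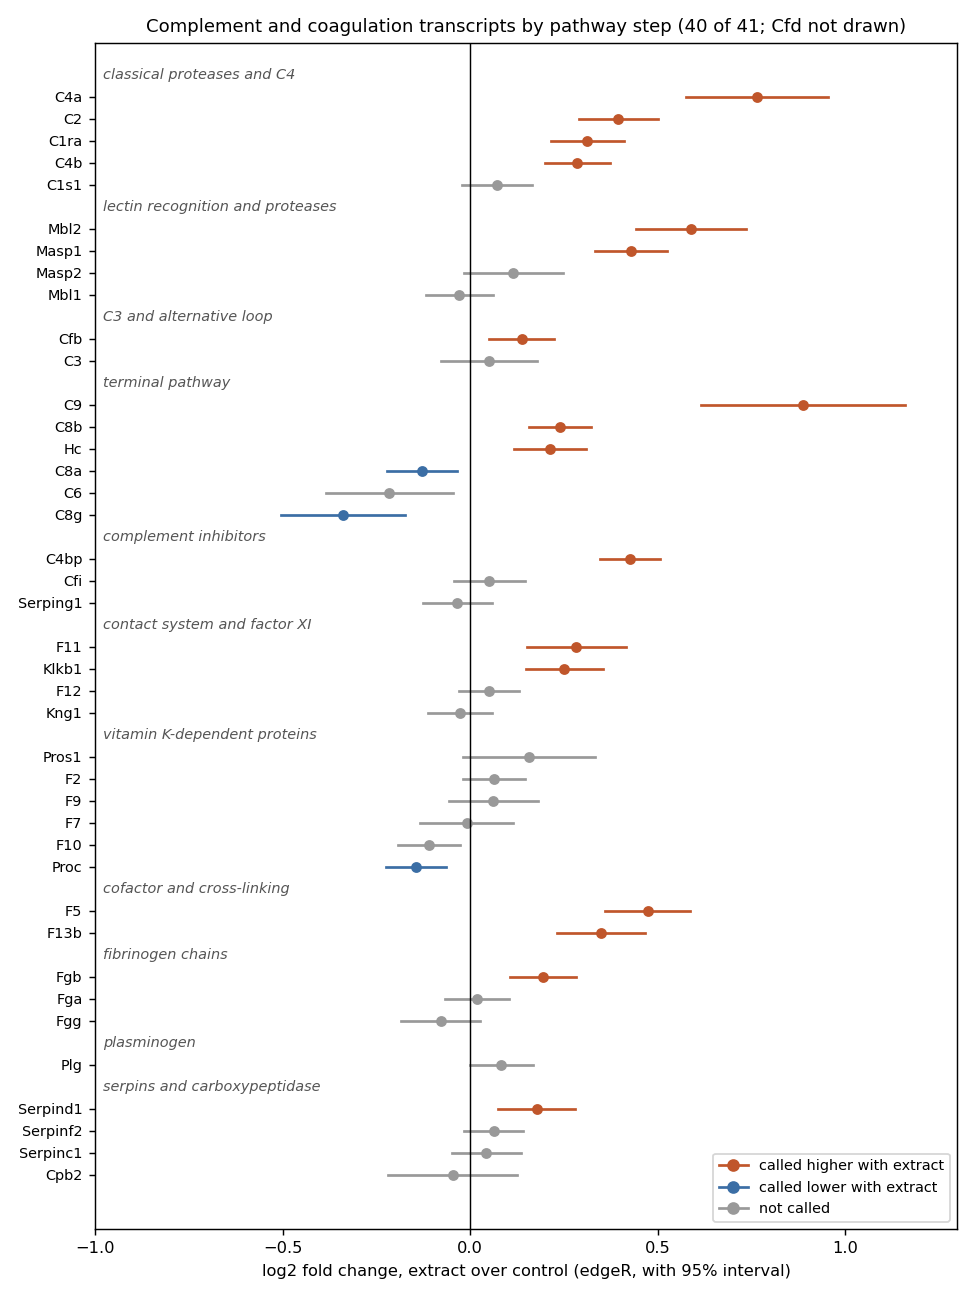
Log2 fold change of extract over control for 40 of the 41 transcripts (Cfd is not drawn), grouped by pathway step, with points for the edgeR estimate and lines for its 95% interval. Among the coloured points, 17 lie right of 0 (called higher) and 3 left of it (called lower), and C9, C4a and Mbl2 lie farthest to the right.

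**Figure D2:**
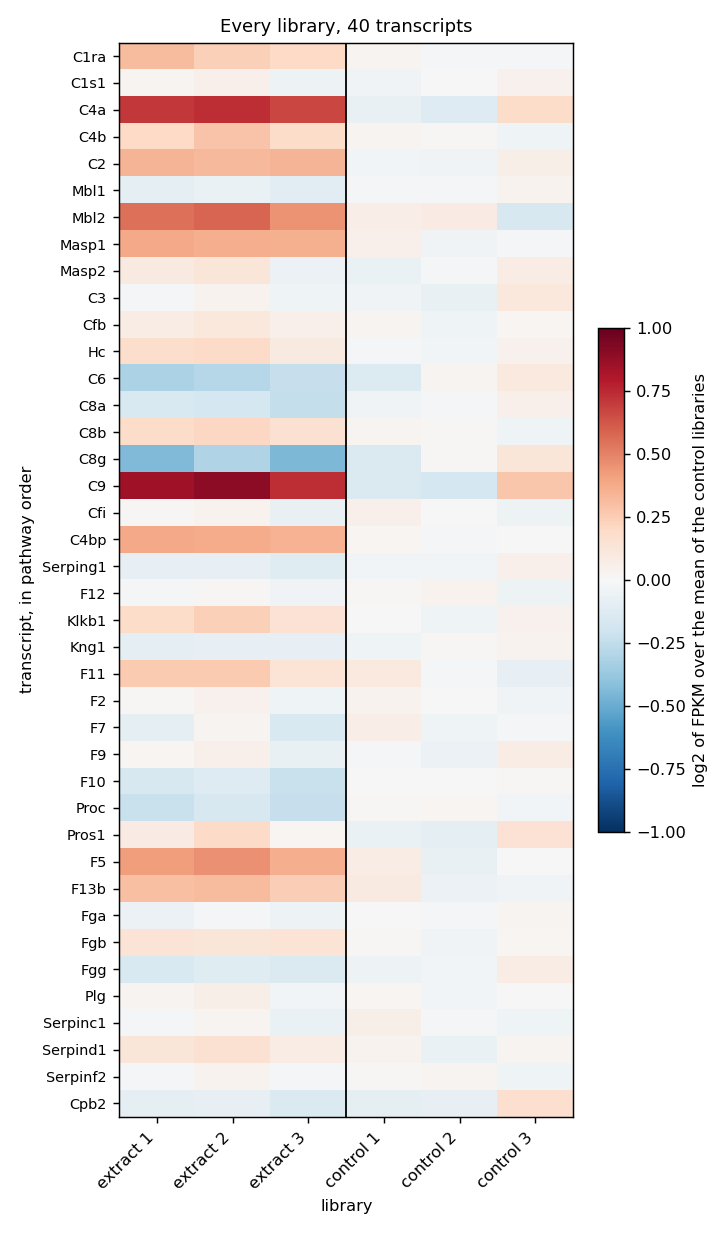
Level of 40 transcripts in each of the 6 libraries, as the log2 of FPKM over the mean of the 3 control libraries, in pathway order. The 3 extract columns look alike, while control 3 is higher than controls 1 and 2 for C9, C4a and Cpb2.

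Levels per unit of length covered a wide range. Fga, Fgg, C3 and Fgb were the 4 most abundant transcripts in both groups and together took 55.0% of the FPKM of the 41 in extract and 56.2% in control. At least 100 FPKM was reached by 26 of the 41 in extract and by 24 in control, and C6 and Cfd were under 10 FPKM in both. Leaving out Cfd, the median coefficient of variation of FPKM between libraries was 2.97% in extract and 3.13% in control, and the smallest count of the other 40 in any library was 1796. Control 3 was the library farthest from its group mean for 22 of the 41 genes.

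Most transcripts of the classical pathway were higher with the extract: 4 of 5 rose and C1s1 was not called. Counts for single pathway steps, here and below, rest on few genes and were not tested as sets. Of all genes tested, 14.2% were called higher and 12.8% lower. Of those with at least 5 FPKM in a group, 27.3% were called higher and 19.4% lower. C4a, a mouse C4 gene also known as sex-limited protein, was at 33.9, 34.7 and 33.1 FPKM in extract libraries, against 19.8, 18.99 and 23.6 FPKM in control libraries. All 3 extract values lay above all 3 control values, and control 3 was the highest of the controls. Its fold change was 1.7001 (95% interval 1.49 to 1.94, log2 0.77, SE 0.08, edgeR adjusted p = 0.000433). C4b, the main C4 gene, had 464, 493 and 458 FPKM in extract and 412, 407 and 391 FPKM in control, a fold of 1.22 (1.15 to 1.296, edgeR adjusted p = 0.00120). C4 is cut by C1s and, with C2, forms the classical C3 convertase. C2 itself stood at 28.3, 27.9 and 28.3 FPKM in extract, against 21.9, 21.8 and 23.2 FPKM in control, with no overlap and a fold of 1.32 (edgeR adjusted p = 0.000624). C1ra, a protease of the C1 complex, had 119.9, 114 and 110.4 FPKM in extract and 98.3, 95.3 and 95.3 FPKM in control, again apart, with a fold of 1.24 (edgeR adjusted p = 0.00126). Its partner C1s1 was at 176 ± 6.87 FPKM in extract and 175 ± 4.65 FPKM in control (SD, n = 3 each), with a 95% interval of the fold from 0.985 to 1.12 (edgeR adjusted p = 0.238).

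C4a (GRCm38, chr17:34809092-34823464, minus strand) and C4b (chr17:34728380-34743882, minus strand) are close copies, so the split of reads between them is uncertain. The longest C4a transcript and the longest coding C4b transcript in GENCODE M21, 5371 and 5379 bases, were identical at 96.1% of aligned bases, and 35.2% of the 50-base stretches of each were also found in the other. That release lists no coding transcript for C4a. A 75-base window within the C4b coding sequence, transcript bases 2740 to 2814 of C4a and 2746 to 2820 of C4b, is shown because its 13 mismatches let a read tell the copies apart. Capitals mark the mismatches, on the sense strand.
C4a: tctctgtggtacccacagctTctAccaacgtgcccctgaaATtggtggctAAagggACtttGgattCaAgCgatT
C4b: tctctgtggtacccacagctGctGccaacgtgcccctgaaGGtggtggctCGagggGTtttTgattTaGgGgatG
The ratio of C4a to C4b was 0.0732, 0.0703 and 0.0721 in extract libraries, against 0.0479, 0.0467 and 0.0603 in control libraries. These do not overlap, but 3 against 3 libraries cannot give an exact two-sided permutation p below the 0.1 found here. C1ra and C1s1 have copies too: 48.0% of the 50-base stretches of C1ra were in C1rb and 24.3% of those of C1s1 in C1s2. Counting all other genes, the shares were 50.8% for C1ra and 39.0% for C1s1, so their values carry the same uncertainty. C1rb was not called (edgeR adjusted p = 0.193) and C1s2 was called higher (edgeR adjusted p = 0.0223).

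In the lectin pathway, Mbl2 and Masp1 rose, and Mbl1 and Masp2 were not called. Mbl2, mannose-binding lectin C, had 465, 476 and 433 FPKM in extract libraries, against 333, 336 and 284 FPKM in control libraries. The groups lay well apart, control 3 was the lowest of the controls, and the fold was 1.504 (1.36 to 1.67, log2 0.59, SE 0.06, edgeR adjusted p = 0.000434). Mbl1, mannose-binding lectin A, was at 108 ± 1.47 FPKM in extract and 115 ± 2.59 FPKM in control, with a fold of 0.9804 (0.921 to 1.04, edgeR adjusted p = 0.637). Masp1, a protease that travels with these lectins, had 21.5, 21.3 and 21.2 FPKM in extract and 17.1, 16.1 and 16.4 FPKM in control, a fold of 1.35 (edgeR adjusted p = 0.000246). The gene overlaps Rtp4 on the other strand, and no use of strand is stated. Of the stretches of the longest coding Masp1 transcript, counted as for the classical pathway genes, 0.321% were in other genes. The largest part, 0.245%, was in Serbp1, so little of that transcript is shared with Rtp4. Masp2, the protease that cuts C4 and C2, was at 62.96 ± 4.15 FPKM in extract and 60.6 ± 3.09 FPKM in control (fold 1.08, edgeR adjusted p = 0.177). Masp2 too overlaps a gene on the other strand, Tardbp. That gene shares 57.2% of the stretches of the longest coding Masp2 transcript, so some Masp2 reads could be from Tardbp.

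C3, the central component, did not pass the test. Its level was 2295, 2381 and 2263 FPKM in extract libraries, against 2278, 2207 and 2500.1 FPKM in control libraries. The groups overlapped, and the 95% interval of the fold ran from 0.948 to 1.13 (edgeR adjusted p = 0.548). Cfb, which supplies the protease of the alternative C3 convertase, had 448, 459 and 443 FPKM in extract and 434, 415 and 432 FPKM in control, a fold of 1.0998 (edgeR adjusted p = 0.0302). That call was lost without extract 1, extract 2, extract 3 or control 2 (edgeR adjusted p = 0.0691, 0.102, 0.0809 and 0.0868) and with limma on the deposited FPKM, and its adjusted p over all alternatives ran from 0.00247 to 0.295. Cfd, factor D, the protease that cuts factor B, is made mainly by fat cells. It was at 0.347, 0 and 2.47 FPKM in extract libraries, against 2.05, 0.193 and 0.0677 FPKM in control libraries, and its interval was too wide to show a direction (fold 0.121 to 13.6, edgeR adjusted p = 0.884). The fat cell marker Adipoq was at 0, 0 and 0.348 FPKM in extract and 0.163, 0.0391 and 0.0402 FPKM in control. Cfd, Adipoq and the fat cell markers Retn and Cidec were highest in extract 3 among extract libraries and in control 1 among controls. Other fat cell markers differed: Fabp4 and Plin1 were highest in extract 1 and control 1, and Acvr1c in extract 2 and control 2. The 6 fat cell markers measured summed to 1.91 to 3.67 FPKM in extract and 3.63 to 4.89 FPKM in control, with Adipoq and Retn at 0 in extract 1 and extract 2. Most of that sum was Fabp4, with means of 1.66 FPKM in extract and 2.88 FPKM in control (called lower, edgeR adjusted p = 0.0253). The part of fat tissue in the Cfd values was not tested.

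Terminal components moved in both directions, with 3 higher, 2 lower and C6 not called. C9, which polymerizes to form the pore, showed the largest rise of the 41. It stood at 111, 114 and 103 FPKM in extract libraries, against 55.5, 54.6 and 74.5 FPKM in control libraries. Every extract value exceeded every control value, and control 3 lay nearest to the extract group. The fold was 1.85 (1.53 to 2.24, log2 0.89, SE 0.12, edgeR adjusted p = 0.00122). Hc, the gene of C5, had 191, 192 and 179 FPKM in extract and 167, 165 and 173 FPKM in control, a fold of 1.16 (edgeR adjusted p = 0.00690). Of 17 alternatives, limma with no low-value filter was the one that did not call it (adjusted p = 0.0703, range 4.30e-06 to 0.0703). C6 had 7.85, 8.01 and 8.35 FPKM in extract and 8.89, 9.96 and 10.5 FPKM in control. These values did not overlap, but the edgeR adjusted p was 0.0629 (0.0232 to 0.205 over the alternatives, under the threshold in 7 of 17).

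C8 is a complex of alpha, beta and gamma chains, and its 3 transcripts did not move together. C8b, the beta chain, was at 103, 105 and 101 FPKM in extract libraries, against 92.9, 91.8 and 88.3 FPKM in control libraries, a fold of 1.18 (edgeR adjusted p = 0.00215). C8a, the alpha chain, had 222, 219 and 209 FPKM in extract and 242, 244 and 255 FPKM in control, a fold of 0.915 (edgeR adjusted p = 0.0499). C8a and C8b lie on opposite strands of chromosome 4 with 11131 bases between them. The C8a call stood at the threshold and was lost without any 1 of the 6 libraries (edgeR adjusted p from 0.0501 to 0.168, range over all alternatives 0.01098 to 0.168), while its direction stayed. C8g, the gamma chain, a lipocalin, had 82.1, 90.5 and 81.6 FPKM in extract, against 101, 112 and 122 FPKM in control. The groups did not overlap, and C8g was 0.791-fold its control level (95% interval 0.706 to 0.887, log2 -0.34, edgeR adjusted p = 0.0102), but without extract 1 the adjusted p was 0.0636 (1.67e-05 to 0.0636 over the alternatives). C8g overlaps Fbxw5 on the other strand. Within libraries, the ratio of C8b to C8a was 0.476 ± 0.00958 in extract and 0.369 ± 0.0203 in control, and that of C8g to C8a was 0.392 ± 0.0212 in extract and 0.452 ± 0.0294 in control (SD, n = 3 each).

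**Figure D3:**
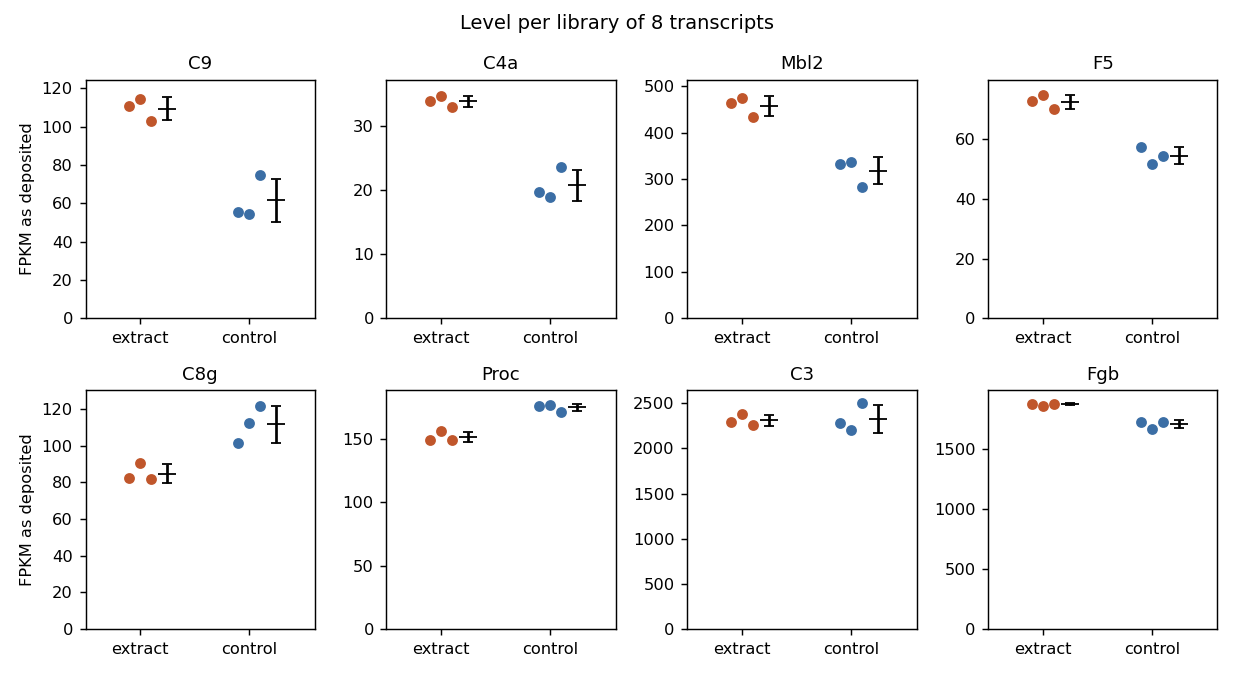
FPKM of 8 transcripts in each library, with the extract group left of the control group in each panel, points for libraries and bars for the mean ± SD of 3. The groups are apart for C9, C4a, Mbl2, F5, C8g, Proc and Fgb and overlap for C3.

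Of the complement inhibitors, C4bp rose while Cfi and Serping1 were not called. C4bp, which binds C4b and helps factor I destroy it, had 97.9, 97.4 and 95.9 FPKM in extract libraries, against 76.2, 74.4 and 75.5 FPKM in control libraries. The spread within each group was narrow, and the fold was 1.34 (1.27 to 1.42, edgeR adjusted p = 0.000118), the smallest p of the 41. Cfi, the protease factor I, was at 373 ± 15.4 FPKM in extract and 376 ± 12.6 FPKM in control (fold 0.971 to 1.11, edgeR adjusted p = 0.393). Serping1, the C1 inhibitor, which also blocks kallikrein, was at 454 ± 6.98 FPKM in extract and 485 ± 15.1 FPKM in control (fold 0.917 to 1.04, edgeR adjusted p = 0.577).

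Of 13 clotting factors, 5 rose and 8 were not called, with a median log2 fold change of 0.06, against 0.23 for the 18 complement components, of which 10 rose and 2 fell. These medians moved with the processing, to 0.00223 for clotting factors and 0.13 for complement components with limma on log2(FPKM + 0.5). Without control 2 the complement component median was 0.15. The share called was 38.5% for clotting factors and 66.7% for complement components. Among all genes tested it was 26.9%, and among those with at least 5 FPKM in a group 46.7%. F5, the cofactor of factor Xa, had 72.9, 74.8 and 70.1 FPKM in extract libraries, against 57.3, 51.7 and 54.4 FPKM in control libraries. The groups were well apart, and the fold was 1.39 (1.28 to 1.503, log2 0.47, SE 0.05, edgeR adjusted p = 0.000367). F13b, the carrier subunit of the fibrin cross-linking enzyme factor XIII, had 66.7, 67.3 and 63.99 FPKM in extract and 57.5, 51.8 and 52.7 FPKM in control, a fold of 1.27 (edgeR adjusted p = 0.00184). In the contact system, which starts clotting on charged surfaces, the neighbouring genes F11 and Klkb1 on chromosome 8, 4658 bases apart, rose together. F11 had 34.7, 34.7 and 31.8 FPKM in extract and 30.9, 28.6 and 27.3 FPKM in control, a fold of 1.22 (edgeR adjusted p = 0.00842). Klkb1, prekallikrein, had 32.97, 34.3 and 32.1 FPKM in extract and 28.9, 28.1 and 29.95 FPKM in control, a fold of 1.19 (edgeR adjusted p = 0.00461). Neither gene's groups overlapped. F11 was not called by limma with no low-value filter (adjusted p = 0.0698, range over the alternatives 0.000116 to 0.0698). A gene on the same strand as Klkb1, Gm45753, shares 42.7% of the 50-base stretches of the longest coding Klkb1 transcript. The mean count of Gm45753 was 47.7, while single libraries had 9276 to 12178 for Klkb1. F12, factor XII, was at 198 ± 3.52 FPKM in extract and 199.6 ± 5.84 FPKM in control (edgeR adjusted p = 0.324), and Kng1, kininogen, at 811 ± 4.77 FPKM in extract and 861 ± 24.3 FPKM in control (edgeR adjusted p = 0.652). Kng2 shares 17.95% of the 50-base stretches of the longest coding Kng1 transcript.

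Among the 6 vitamin K-dependent proteins, whose glutamates are carboxylated so that they can bind membranes, 0 rose and Proc fell. F2, prothrombin, was at 370.2, 378 and 358 FPKM in extract libraries, against 377, 368 and 359 FPKM in control libraries. The groups overlapped, with a 95% interval of the fold from 0.987 to 1.11 (edgeR adjusted p = 0.229). F7, which starts clotting with tissue factor, had a fold of 0.994 (0.912 to 1.08, edgeR adjusted p = 0.9204), and F9, the haemophilia B gene, a fold of 1.04 (0.961 to 1.13, edgeR adjusted p = 0.416). F10, which makes thrombin, had 154, 158 and 148 FPKM in extract and 172, 172 and 174 FPKM in control. Its values did not overlap, and the edgeR adjusted p was 0.0557 (0.0107 to 0.213 over the alternatives, under the threshold in 6 of 17). Proc, protein C, which inactivates factors V and VIII, had 149, 156 and 149 FPKM in extract, against 176, 177 and 171 FPKM in control. The values lay apart, and the fold was 0.905 (0.856 to 0.956, log2 -0.14, edgeR adjusted p = 0.0174). That call was lost without extract 1, extract 2 or extract 3 (edgeR adjusted p = 0.122, 0.0507 and 0.0694, range over all alternatives 0.00486 to 0.122). Pros1, the cofactor of protein C, had 16.02, 17.2 and 15.3 FPKM in extract and 14.5, 14.2 and 16.7 FPKM in control (edgeR adjusted p = 0.169). Without control 3 it was called higher (edgeR adjusted p = 0.0152, range 0.0152 to 0.535).

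The fibrinogen chains, which assemble in equal numbers into one protein, differed by small amounts. Fgb, the beta chain, had 1878, 1861 and 1879 FPKM in extract libraries, against 1722, 1669 and 1728 FPKM in control libraries. These did not overlap, and the fold was 1.14 (1.08 to 1.22, edgeR adjusted p = 0.00715). Fgb was not called by limma with no low-value filter (adjusted p = 0.254, range over the alternatives 1.76e-06 to 0.254). Fga, the alpha chain, had 2374, 2449 and 2396 FPKM in extract and 2466, 2438 and 2526 FPKM in control (fold 0.955 to 1.08, edgeR adjusted p = 0.744). Fgg, the gamma chain, had 2317, 2368 and 2326 FPKM in extract and 2486, 2524 and 2713 FPKM in control. The Fgg levels lay apart and were lower in extract, but the edgeR adjusted p was 0.244 and the fold interval 0.8802 to 1.02. With limma on log2(FPKM + 0.5) Fgg was called lower (adjusted p = 0.0487, range over the alternatives 0.0464 to 0.579). The ratio of Fgb to Fga was 0.791, 0.7598 and 0.784 in extract, against 0.698, 0.685 and 0.684 in control, and that of Fgg to Fga 0.976, 0.967 and 0.971 in extract, against 1.01, 1.04 and 1.07 in control. A ratio within a library does not depend on how libraries are scaled. The 6 ratios computed were chosen after their values were seen, and each had an exact two-sided permutation p of 0.1 (0.1 after Benjamini-Hochberg adjustment), the smallest that 3 against 3 libraries can give.

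**Figure D4:**
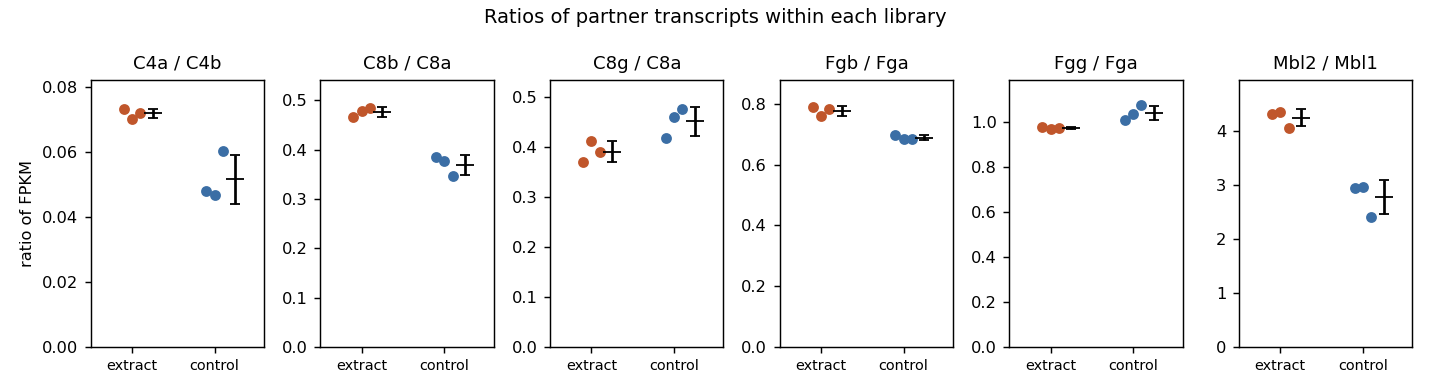
Ratio of FPKM between partner transcripts in each library, extract left of control, with points for libraries and bars for the mean ± SD of 3. No panel shows overlap between the groups, from C4a over C4b (0.0719 in extract, 0.0516 in control) to Mbl2 over Mbl1 (4.25 in extract, 2.77 in control).

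The 3 fibrinogen genes form a cluster on chromosome 3, with 11027 bases between Fgg and Fga and 6514 between Fga and Fgb, and Fgb on the opposite strand. Their promoters are shown to compare chains of one protein, with those of C9 and C8g, which had the largest rise and the largest fall among called genes. The 150 bases before each start are from RefSeq on GRCm38.p6: chr15:6445196-6445345 (plus strand) for C9, chr2:25501720-25501869 (minus) for C8g, chr3:83026003-83026152 (plus) for Fga, chr3:83049864-83050013 (minus) for Fgb and chr3:83007574-83007723 (plus) for Fgg. The RefSeq start lies 19 bases inside the gene as the table gives it for C9 and 77 for Fga. Capitals mark matches to GTTAAT, a half-site of the liver factor HNF1, and to TTGCNNAA, a C/EBP motif, on either strand, none of which overlap here.
C9: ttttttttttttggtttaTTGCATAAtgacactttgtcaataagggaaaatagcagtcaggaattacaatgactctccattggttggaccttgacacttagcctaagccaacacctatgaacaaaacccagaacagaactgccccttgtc
C8g: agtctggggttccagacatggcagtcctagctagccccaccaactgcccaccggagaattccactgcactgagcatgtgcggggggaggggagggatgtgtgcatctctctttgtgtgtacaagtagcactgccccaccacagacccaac
Fga: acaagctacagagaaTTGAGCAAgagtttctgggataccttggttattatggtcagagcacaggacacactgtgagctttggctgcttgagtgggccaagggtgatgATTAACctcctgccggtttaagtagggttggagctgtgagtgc
Fgb: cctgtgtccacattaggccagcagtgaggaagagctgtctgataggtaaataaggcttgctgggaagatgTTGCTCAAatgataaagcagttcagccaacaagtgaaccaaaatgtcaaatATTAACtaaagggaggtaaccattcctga
Fgg: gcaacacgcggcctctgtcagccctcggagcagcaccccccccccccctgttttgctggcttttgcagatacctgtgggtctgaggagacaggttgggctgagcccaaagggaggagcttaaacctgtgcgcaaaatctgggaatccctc
Fga and Fgb each held both motifs, C9 held the C/EBP motif alone, and C8g and Fgg held neither in the 250 bases searched. Promoters were found for 31 of the 41 genes. Where a gene had several promoter entries, the one nearest its start in the deposited table was taken for these genes, but the first entry for all other genes. GTTAAT on either strand was in 8 of these 31 (25.8%), against 6.52% of 27025 promoters of the same length, and TTGCNNAA in 8 of 31 (25.8%), against 9.55%. The STAT motif TTCNNNGAA was in 6 of 31 (19.4%), against 7.18%, and CTGGGAA, the core of an interleukin-6 response element, in 5 of 31 (16.1%), against 9.08%. TATAAA was in 2 of 31 (6.45%), against 12.97%.

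Of the inhibitors of clotting and fibrinolysis, Serpind1 rose, Proc fell as given above and 4 were not called. Serpind1, heparin cofactor II, had 214, 218 and 206 FPKM in extract libraries, against 201, 187 and 200.1 FPKM in control libraries, a fold of 1.13 (edgeR adjusted p = 0.02104). It was not called without extract 1, extract 2 or control 2 (edgeR adjusted p = 0.0576, 0.0818 and 0.0547, range over all alternatives 0.000662 to 0.154). Serpind1 overlaps Pi4ka, which is on the other strand. Serpinc1, antithrombin, the main inhibitor of thrombin, had 182, 188 and 176 FPKM in extract and 191, 182 and 179 FPKM in control. Those groups overlapped, and the interval of the fold was 0.967 to 1.098 (edgeR adjusted p = 0.4598). Zbtb37 shares 58.8% of the stretches of the longest coding Serpinc1 transcript, counted as for the classical pathway genes. Some Serpinc1 reads could therefore be from Zbtb37, and the part of that gene in these values was not tested. Serpinf2, the plasmin inhibitor alpha2-antiplasmin, was at 373 ± 7.46 FPKM in extract and 373 ± 9.04 FPKM in control (edgeR adjusted p = 0.219). Cpb2, a carboxypeptidase that protects fibrin from lysis, had 242, 245 and 235 FPKM in extract and 242, 245 and 291 FPKM in control. Control 3 stood above the other 5 values (edgeR adjusted p = 0.685). Plg, plasminogen, had 696, 713 and 671 FPKM in extract and 693, 671 and 685 FPKM in control, with a fold of 1.06 (0.999 to 1.12, edgeR adjusted p = 0.134). Slc22a3, which overlaps Plg on the other strand, shares 13.8% of the stretches of the longest coding Plg transcript. The mean count of Slc22a3 was 137.7, while single libraries had 157168 to 183260 for Plg. Of the 21 genes not called, 18 had a 95% interval of the fold that lay within 1.25-fold either way, while C6, Cfd and Pros1 had wider ones.

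Neighbouring genes on chromosome 17 all rose. C4b, C4a, Cfb and C2 lie in that order on the minus strand of the class III region of the major histocompatibility complex, with 86 bases between Cfb and C2. Their log2 fold changes were 0.29, 0.77, 0.14 and 0.40. Gm20547, an annotated gene that overlaps Cfb and C2 on their strand, shares 81.4% of the 50-base stretches of Cfb and 58.0% of those of C2. Their reads could be split with it, but few counts were given to it. The mean count of Gm20547 was 19.8, while single libraries had 74922 to 87712 for Cfb and 5194 to 7393 for C2. F7 and F10, 1499 bases apart on chromosome 8, were not called.

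Other genes of both systems moved both ways. Of 21 further complement genes, 5 were called higher and 5 lower, with a median log2 fold change of -0.07. The share called, 47.6%, stood against 26.9% of all genes tested and 46.7% of those with at least 5 FPKM in a group. Vtn, vitronectin, which blocks the terminal complex, had 1174, 1220.0 and 1140.2 FPKM in extract, against 1389, 1452 and 1497 FPKM in control, a log2 fold change of -0.23 (edgeR adjusted p = 0.00482). Cfp, properdin, fell to 14.3 ± 1.19 FPKM in extract, against 22.8 ± 1.701 FPKM in control (edgeR adjusted p = 0.000734). Fcna, a ficolin of macrophages, fell to 21.6 ± 1.26 FPKM in extract, against 41.8 ± 2.37 FPKM in control (edgeR adjusted p = 4.93e-05). All 3 C1q genes fell as well, among them C1qa, at 46.8 ± 0.888 FPKM in extract and 84.3 ± 5.42 FPKM in control (SD, n = 3 each, edgeR adjusted p = 4.14e-05). Alongside them the Kupffer cell marker Clec4f was at 41.96 ± 2.77 FPKM in extract and 67.2 ± 3.08 FPKM in control (edgeR adjusted p = 0.000272). The part of macrophage number in these falls was not tested. The 5 higher calls of that list became 0 without extract 1, 1 without extract 2, extract 3, control 1 or control 2, and 4 without control 3.

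Of 31 further genes of clotting, 10 were called higher and 3 lower, with a median of 0.07. The share called was 41.9%, against 26.9% of all genes tested and 46.7% of those with at least 5 FPKM in a group. Lman1 and Mcfd2, which together carry factor V and factor VIII out of the endoplasmic reticulum, rose 1.39-fold and 1.17-fold (edgeR adjusted p = 0.000246 and 0.00536). F8, the factor VIII gene, made by endothelial cells, was at 0.712 ± 0.00861 FPKM in extract and 0.833 ± 0.137 FPKM in control (edgeR adjusted p = 0.407). Serpina10 and its cofactor Proz, which inhibit factor Xa, rose 1.24-fold and 1.18-fold (edgeR adjusted p = 0.00256 and 0.00544). Hgfac and Habp2, plasma proteases, rose 1.26-fold and 1.19-fold (edgeR adjusted p = 0.000474 and 0.00281). Vkorc1, the reductase that recycles vitamin K, fell to 98.7 ± 1.96 FPKM in extract, against 126 ± 6.56 FPKM in control (edgeR adjusted p = 0.00346). The 3 lower calls, Vkorc1, Thbd and Vwf, became 1 without extract 1, control 1 or control 3.

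Acute phase genes outside these families leaned the other way, with 4 of 20 called higher and 7 lower and a median of -0.21. Calls were made for 55% of them, against 26.9% of all genes tested and 46.7% of those with at least 5 FPKM in a group. Saa1, a serum amyloid with a close copy that can share its reads, had 779.7, 837 and 693 FPKM in extract, against 1185, 1426 and 2193 FPKM in control. The values lay apart, control 3 was the highest, and the log2 fold change was -0.998 (edgeR adjusted p = 0.00856). Saa4, Lcn2, Lbp and Itih3 fell too, with log2 fold changes of -0.52, -0.92, -0.32 and -0.44 (edgeR adjusted p = 0.00109, 0.00172, 0.00325 and 0.00498), while Steap4 rose 1.403-fold (edgeR adjusted p = 0.000583). Cp, ceruloplasmin, rose 1.3001-fold (edgeR adjusted p = 0.00139), and Hamp, hepcidin, which limits iron export, rose 2.69-fold (edgeR adjusted p = 0.00147). Haptoglobin (Hp) had 3628, 3780.0 and 3541 FPKM in extract and 3413, 3888 and 4879 FPKM in control (edgeR adjusted p = 0.595), with control 3 the highest of the 6 libraries, as for C3, Fgg and Cpb2. Of 12 genes of signalling and transcription behind hepatic secretory genes, 5 were called higher and 1 lower (50% called). Among them Hnf4a, a factor that drives many clotting genes, was at 124 ± 1.53 FPKM in extract and 111 ± 2.77 FPKM in control (edgeR adjusted p = 0.00538). Foxa2 and Onecut1 rose 2.49-fold and 8.18-fold (edgeR adjusted p = 1.98e-05 and 0.000260). Nr3c1, the glucocorticoid receptor, rose 1.46-fold (edgeR adjusted p = 0.000379). Il6st, the shared receptor chain of interleukin-6 signalling, rose to 17.2 ± 0.328 FPKM in extract, against 13.7 ± 0.513 FPKM in control (edgeR adjusted p = 0.000666). Cebpd, a C/EBP factor induced by inflammation, fell to 2.19 ± 0.292 FPKM in extract, against 3.903 ± 0.609 FPKM in control (edgeR adjusted p = 0.00459).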

How the data were processed

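RNA from mouse liver was prepared with oligo(dT) beads for sequencing, as the labels' protocols state. Per the submitters' processing notes, tools included cutadapt (1.9), HISAT2 (2.0.4), StringTie (1.3.4d) and edgeR. Their roles, the genome build and any use of strand are not given in the sources used here. In the deposited table are estimated counts per gene, all whole numbers and used without change, and FPKM as computed by the authors (per gene length and depth). A further 6 per-sample columns could be tied to no sample and were left out. Of the 41 genes, 38 have the span of GENCODE M21 (GRCm38), and coordinates are the table's.

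Groups came from column names and sample titles. edgeR 4.0.16 in R 4.3.3 (filterByExpr, TMM, quasi-likelihood test, two-sided, Benjamini-Hochberg over 18071 genes, threshold 0.05) was run on the counts with no covariate, and intervals are 95%. Alternatives were DESeq2 1.42.0, no filter, other factors, counts divided by 4, limma 3.58.1 on log2 FPKM with pseudocounts of 0.1, 0.5 and 1 and with or without a minimum of 0.5 FPKM, a replicate block, and leaving out each library. Library totals were 51219533 to 61432016. All 41 genes are named. Values per library are given for called genes with the 8 largest changes each way, for 8 central genes, and for genes whose call changed. Further genes were drawn from the up to 8 called genes with the smallest p in each list, not all of which are given, plus F8, Hp, C1rb, Alb, Clec4f and Adipoq, chosen after their values were seen. Thbd, Vwf and the fat cell markers Retn, Cidec, Plin1 and Acvr1c are also named outside that rule. Some further complement genes are not reported here by name. Members, lists and pathway steps were chosen with earlier results of these data known.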

Additional observations from a re-analysis of the deposited data

How the results depend on the processing

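Of the 20 called genes, 12 kept their call under all 17 alternatives and 8 lost it under 1 or more. Of the 21 not called, 4 were called under 1 or more, and no called gene changed direction. The causes of these moves were not tested. Upper-quartile factors gave 5 lower calls among the 41, 1 of them a clotting factor, 3 higher further complement genes, and median log2 fold changes of 0.18 for complement components, 0.00909 for complement inhibitors, 0.0205 for clotting factors, 0.0405 for plasminogen and 0.0108 for clotting inhibitors. Counts divided by 4 gave 5 lower calls and 1 lower clotting factor. With no filter or with RLE factors in edgeR, complement components had 1 lower call each, and with no filter 3 further complement genes were higher.

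With limma on FPKM, pseudocounts of 0.5, 0.1 and 1 gave 6, 5 and 6 lower calls among the 41 and 2, 1 and 2 among clotting factors. Medians at these pseudocounts were 0.13, 0.11 and 0.12 for complement components, -0.00956, -0.00957 and -0.00955 for complement inhibitors, 0.00223, 0.00225 and 0.00222 for clotting factors, 0.0216, 0.0216 and 0.0216 for plasminogen, and -0.00781, -0.00783 and -0.00779 for clotting inhibitors. Without the filter the last 4 were as at 0.5. In all 4 of these limma fits 0 clotting inhibitors and 1 further complement gene were higher. Without the filter, 1485 of all genes were higher, with 3 higher and 1 lower clotting factors, 5 higher and 1 lower further clotting genes, and a complement component median of 0.13. With TMM factors on FPKM that median was 0.16 and 2 further complement genes were higher.

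Replicate numbers are shared by the groups, but same-numbered libraries did not deviate together (r = -0.12, -0.03 and -0.09 over genes). With the replicate number as a block, 15 of the 41 were higher and 1 lower, complement components had 1 lower call and a median of 0.18, clotting inhibitors had 0 higher and 0 lower calls, 1 further complement gene was higher and 1 further clotting gene lower.

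Leaving out 1 library at a time gave 1442 to 2153 lower calls among all genes, 0 to 3 among the 41, 0 to 2 among complement components and 0 to 1 among clotting inhibitors, with 0 to 2 higher calls there. Medians ranged from 0.15 to 0.237 for complement components and 0.0368 to 0.0782 for complement inhibitors. Further complement genes had 0 to 4 higher calls, further clotting genes 1 to 2 lower calls and the signalling genes 1 to 2 lower calls. The number of libraries, 3 in each group, limits small changes. Cfd counts differed widely within groups, at 21, 0 and 155 in extract and 117, 14 and 4 in control, and the cause was not tested.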
